A study of Mus musculus with 22 samples.

Results

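The 9 genes described here were grouped as uptake carriers of liver cells: Slc10a1, Slco1a1, Slco1a4, Slco1b2, Slco2a1, Slco2b1, Slc22a5, Slc22a7 and Slc22a18. Their substrates include bile acids, organic anions, prostaglandins and carnitine, while that of Slc22a18 is unsettled. These 9 genes were taken as a named set. Every array probe whose platform gene symbol equalled 1 of these names was used, which gave 18 probes of the 45281 on the array. A probe was kept for testing where its detection p was under 0.05 on at least 3 of the 22 arrays, and 15 of the 18 probes, from 8 of the 9 genes, passed, against 22622 of all 45281 probes. Levels are log2 of the normalized probe intensity, and a difference of 1 on this scale is a doubling; since probes bind with different strength, no probe's level is set against another's.

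Liver of female C3H mice was measured in 4 groups. Controls (3 arrays) had the vehicle, DMSO in corn oil. Mice given TCPOBOP, a synthetic agonist of the nuclear receptor CAR (Nr1i3), at 3 mg/kg weekly by stomach were sampled at 28 weeks (3 arrays) and 42 weeks (7 arrays). The last group (9 arrays) had an injection of DENA (diethylnitrosamine, a DNA-damaging liver carcinogen) at 90 mg/kg and, from the week after, the same weekly TCPOBOP for 28 weeks. The protocol places liver tumours (HCC) in the TCPOBOP and the DENA plus TCPOBOP schedules and states that RNA came from microdissected samples. The labels do not say which array held tumour and which held liver beside it, at which age each control was taken, or whether 2 arrays could share a mouse, although each is called a biological replicate; p-values here measure the spread between these arrays. The control titles carry an abbreviation that was read as the vehicle group, since the design names no other group without TCPOBOP.

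Hepatocytes clear bile acids and drugs from portal blood across their basolateral membrane. Slc10a1 (NTCP) carries conjugated bile salts with sodium, while the organic anion transporting polypeptides, encoded by Slco genes, exchange bile acids, bilirubin, thyroid hormones, steroid conjugates and many drugs without it. Members of the Slc22 family carry organic anions, organic cations or carnitine. Several of these genes are under the control of liver nuclear receptors, among them CAR, FXR and HNF4A, and the canalicular pumps of the Abc family export what the uptake carriers bring in.

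Each array detected 34.8% to 42.6% of its probes, with ranges that overlapped between all 4 groups. The median intensity before normalization ranged from 89.8 to 122.06 after DENA plus TCPOBOP and from 96.8 to 122.21 in controls. TCPOBOP alone had 122.28 to 141.8 (28 weeks) and 118.8 to 144.6 (42 weeks). Every DENA plus TCPOBOP array and every control thus lay below every 28-week array. The closest of these, control 3 at 122.21 and 28-week array 3 at 122.28, were on the same array slide. The part of these medians in the results was not tested. Of the 13 hepatocyte markers 12 were kept, and their summed intensity spanned 241878 to 287986 in controls and 248745 to 257957 at 28 weeks of TCPOBOP. At 42 weeks it spanned 227969 to 264359 and after DENA plus TCPOBOP 210902 to 263583, so that the tissue label held in every group, although 0, 3 and 1 of the 12 fell against controls at 28 weeks, 42 weeks and after DENA plus TCPOBOP. Of the CAR targets 14 of 22 kept genes rose and 0 fell at 28 weeks of TCPOBOP, where 3.45% of all genes were called higher and 2.59% lower. Their median log2 change was 1.31 against -0.02 over all genes. The target list was chosen with earlier results of these data known. The markers of sinusoidal and vascular endothelium had a lower sum in the later samples, with a summed intensity of 13030 to 16260 in controls and 11221 to 13739 at 28 weeks, against 3540 to 6791 at 42 weeks and 3470 to 9467 after DENA plus TCPOBOP. All 15 of these markers were kept and none was undetected throughout a group. The sum of the 11 stellate cell and fibroblast markers was also lower there, from 16977 to 19105 in controls and 14262 to 16074 at 28 weeks down to 3741 to 9849 at 42 weeks and 2790 to 9326 after DENA plus TCPOBOP. Its members were mixed: against controls 4 of 11 fell and 2 rose at 42 weeks, the 2 being Col1a1 (2.45 ± 0.63, limma adjusted p = 0.00532) and Vim (2.22 ± 0.54, limma adjusted p = 0.00378), and 5 fell and 0 rose after DENA plus TCPOBOP. Macrophage markers went another way: 5 of 11 rose at 28 weeks, with a sum of 9227 to 11704 against 4650 to 5609 in controls. At 42 weeks 3 of 11 rose and 2 fell against controls, with a sum of 4361 to 10513. After DENA plus TCPOBOP 2 rose and 1 fell, with a sum of 4688 to 8554, so that both later groups overlapped the controls. In bulk tissue, fewer cells of a type and less RNA per cell cannot be told apart.

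Against controls, uptake carriers that changed were lower and none was higher. At 28 weeks of TCPOBOP 1 of the 8 tested genes fell, Slc22a7, through 1 of 15 kept probes, where 5.19% of all kept probes were called, 2.77% higher and 2.42% lower. At 42 weeks 5 of 8 genes fell, Slc10a1, Slco1b2, Slco2a1, Slco2b1 and Slc22a7, through 8 of 15 probes, where 28.8% of all kept probes were called, 13.2% higher and 15.6% lower. After DENA plus TCPOBOP the same 5 genes fell, through 7 of 15 probes, where 23% of all kept probes were called, 10.4% higher and 12.7% lower. The median log2 change of the 15 probes was -0.27, -0.63 and -0.37 in these comparisons, beside -0.0144, -0.00353 and 0.00493 over all kept probes. These comparisons share their 3 control arrays, and without control 2 or control 3 the count after DENA plus TCPOBOP was 3 of 8. The treated arrays lay wholly on 1 side of the controls on 8, 8 and 5 of the 15 probes, as did 30%, 23.9% and 18.6% of all kept probes. Calls come from limma's moderated test over all 22622 kept probes with Benjamini-Hochberg adjustment at 0.05, and ± is the standard error of a difference or the SD of a group's level.

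**Figure D1:**
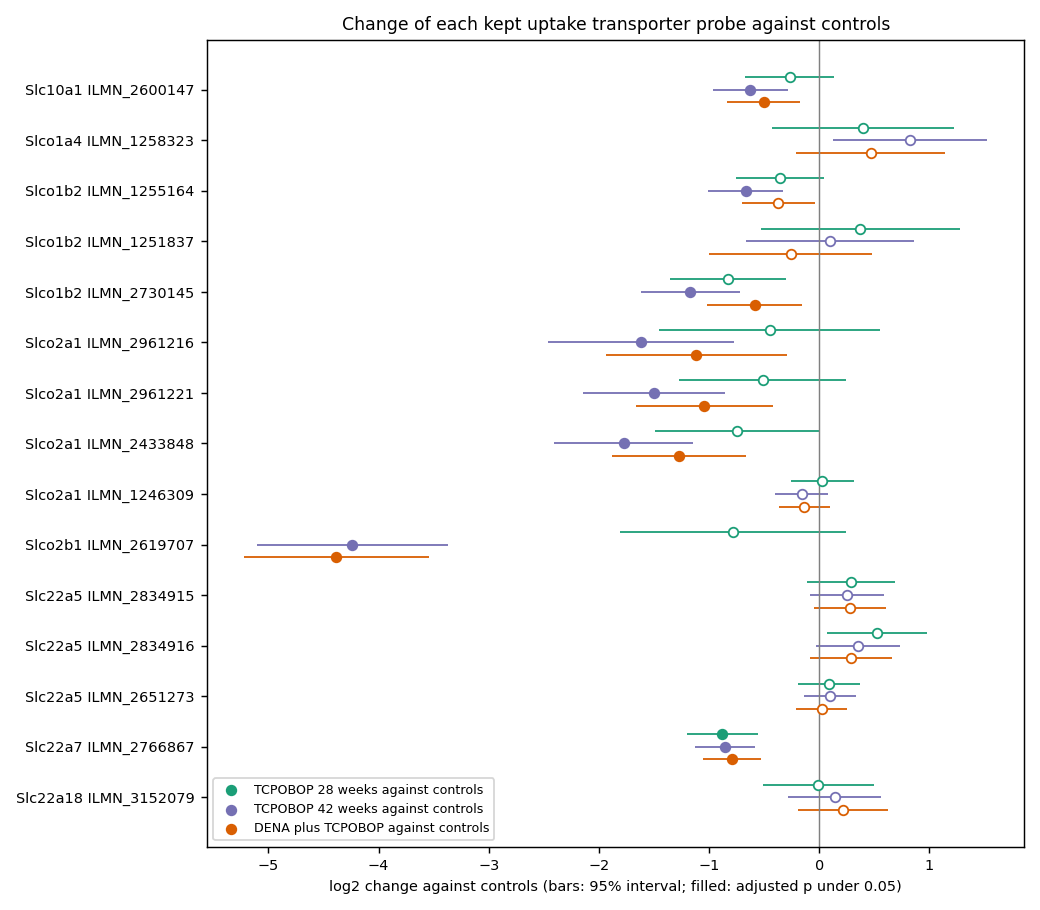
Log2 change against controls (x axis) of the 15 kept uptake carrier probes (rows) at 28 weeks of TCPOBOP, 42 weeks of TCPOBOP and after DENA plus TCPOBOP; bars are 95% intervals and filled points passed an adjusted p of 0.05. Slco2b1 stands at -4.24 and -4.38 in the later groups, the other called probes lie between -1.77 and -0.50, and no filled point is above 0.

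Slco2b1 (OATP2B1), a carrier of steroid sulfates, thyroid hormone and statins, had the largest falls of the 8 tested genes at 42 weeks and after DENA plus TCPOBOP. Its probe, ILMN_2619707, read 12.81, 12.73 and 12.84 in the controls and 12.17, 12.07 and 11.78 at 28 weeks of TCPOBOP. At 42 weeks the lowest, median and highest of 7 arrays were 7.99, 8.49 and 9.07, and after DENA plus TCPOBOP those of 9 arrays were 7.29, 8.18 and 10.55. Every array of both later groups was below every control and every 28-week array, and the 28-week arrays were all below the controls. The level was 18.9-fold lower than in controls at 42 weeks (log2 change -4.24 ± 0.42, limma adjusted p = 1.62e-07) and 20.9-fold lower after DENA plus TCPOBOP (-4.38 ± 0.40, limma adjusted p = 6.45e-08). Among the 22622 kept probes these falls ranked 30 and 22 by size.

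At 28 weeks of TCPOBOP alone Slco2b1 was not called. The change there was -0.79 ± 0.49, which did not pass the test (limma adjusted p = 0.464) although the 3 and 3 arrays did not overlap. With only these 2 groups in the fit, and so without the wide spread of the later groups, the same difference passed (limma adjusted p = 0.00219). From 28 to 42 weeks Slco2b1 fell 10.9-fold (log2 change -3.45 ± 0.42, limma adjusted p = 2.73e-05). Longer treatment, older age and a differing tumour content cannot be told apart in this comparison, since the labels do not mark tumour. At the same 28 weeks of TCPOBOP, samples with prior DENA were 12.1-fold lower than those without (-3.60 ± 0.40, limma adjusted p = 1.30e-05). Prior DENA and a differing tumour content cannot be told apart there either. The later groups differed from each other by -0.15, with a 95% interval from -0.78 to 0.49 for DENA plus TCPOBOP minus 42 weeks. The differences recurred within the array slides: against the control on the same slide, the change was -4.39 at 42 weeks on slide 2 and -4.04 and -4.62 after DENA plus TCPOBOP on slides 3 and 4, and the difference between 42 and 28 weeks was -3.43 and -3.65 on slides 1 and 2.

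Slco2b1 was thus called lower in 4 of the 6 comparisons among the groups. Among uptake carriers, 2 of 8 genes fell from 28 to 42 weeks of TCPOBOP, Slco2b1 and Slco2a1, where 11.5% of all kept probes were called, 5.22% higher and 6.31% lower. In DENA plus TCPOBOP against TCPOBOP at 28 weeks only Slco2b1 of the 8 genes passed, where 10.8% of all kept probes were called, 4.96% higher and 5.85% lower. In DENA plus TCPOBOP against 42 weeks of TCPOBOP limma called 0 of the 8 genes, where 2.04% of all kept probes were called (1.07% higher and 0.973% lower) and 4468 kept probes had an unadjusted p under 0.05. Groups did not overlap on 4, 1 and 0 of the 15 uptake carrier probes in these 3 comparisons, where 14.3%, 11.2% and 0.221% of all kept probes did not.

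Array 6 of the DENA plus TCPOBOP group, at 10.55, held far more Slco2b1 signal than the next array of its group, at 8.84. Its summed endothelial intensity, 8241, was exceeded in its group only by array 3, with 9467, and array 3 had a Slco2b1 level of 8.07, below the group's median. The part of endothelial and stellate cell signal in the fall of Slco2b1 was not tested. The genes most like Slco2b1 over the 22 arrays were Il1rap (Pearson r = 0.97), Aspdh (0.97) and Cyp2d13 (0.96). Over deviations from the group means, which leave out the differences between groups, their r was 0.78, 0.80 and 0.78. Il1rap went from 11.42 in controls to 8.07 at 42 weeks and Aspdh from 11.45 to 7.17.

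**Figure D2:**
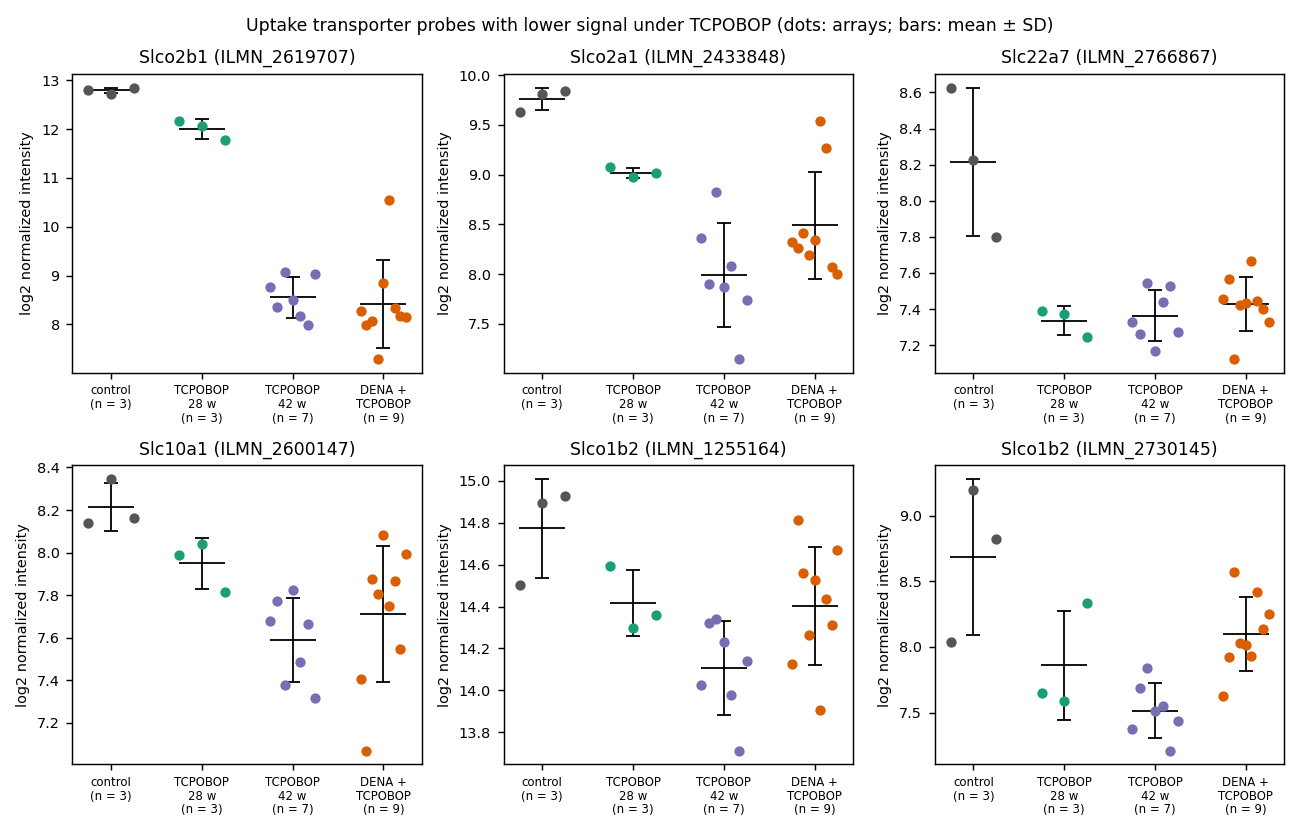
Log2 normalized intensity (y axis) of 6 probes by group (x axis); dots are arrays, bars the mean ± SD. Slco2b1 drops between 28 and 42 weeks of TCPOBOP, with 1 DENA plus TCPOBOP array at 10.55, whereas Slc22a7 is already at 7.24 to 7.39 in all 3 arrays at 28 weeks.

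Slco2a1 encodes the prostaglandin transporter, which takes up prostaglandins for breakdown and is known from endothelium as well as epithelia. It fell at 42 weeks of TCPOBOP and after DENA plus TCPOBOP on 3 of its 4 kept probes. The probe with the largest change, ILMN_2433848, read 9.63, 9.81 and 9.85 in the controls and 9.07, 8.97 and 9.01 at 28 weeks of TCPOBOP. Its lowest, median and highest levels were 7.14, 7.90 and 8.82 at 42 weeks and 7.996, 8.32 and 9.54 after DENA plus TCPOBOP. At 42 weeks no array reached the lowest 28-week array, while 2 DENA plus TCPOBOP arrays, 6 and 7, came close to the controls at 9.54 and 9.26. On the brightest Slco2a1 probe, ILMN_2961216, DENA plus TCPOBOP array 6 read 11.14, above the highest control at 11.04. On ILMN_2961221 the same array stayed below the lowest control, at 9.56 against 9.66.

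On ILMN_2433848 Slco2a1 was 3.42-fold lower at 42 weeks than in controls (-1.77 ± 0.30, limma adjusted p = 0.000148) and 2.42-fold lower after DENA plus TCPOBOP (-1.27 ± 0.29, limma adjusted p = 0.00292). Probes ILMN_2961216 and ILMN_2961221 changed by -1.62 and -1.50 at 42 weeks and by -1.11 and -1.04 after DENA plus TCPOBOP, all 4 past the threshold, with limma adjusted p between 0.000888 and 0.0447. At 28 weeks the log2 changes of the 3 probes were -0.45, -0.51 and -0.74, and none passed in the main fit. On each of the 3 probes every 28-week array was below every control. Each passed in at least 1 other processing setting, with a lowest limma adjusted p of 0.0122, 0.0102 and 0.00125. From 28 to 42 weeks the changes were -1.17 ± 0.41 (limma adjusted p = 0.0667), -0.98 ± 0.31 (0.0420) and -1.03 ± 0.30 (0.0306), so 2 of the 3 passed. Both of these calls were lost without any 1 of the 3 arrays of the 28-week group, with limma adjusted p of 0.130, 0.134 and 0.113 for ILMN_2961221 and 0.113, 0.0880 and 0.104 for ILMN_2433848; both were lost without the 42-week array 7 (0.0620 and 0.0511), and that on ILMN_2961221 also without array 2, 4, 5 or 6 (0.0563 to 0.0641). Both were lost, too, with the slide as a fixed block (0.0594 and 0.0709), under median scaling (0.106 and 0.0909) and without a filter (0.0781 and 0.0576), and that on ILMN_2961221 with only the 2 groups (0.0584). After DENA plus TCPOBOP the call on ILMN_2961216 was lost without any 1 of 10 of the 12 arrays, that is all but DENA plus TCPOBOP arrays 6 and 7, with a limma adjusted p up to 0.124, and under normexp, median scaling or no filter (0.0549, 0.108 and 0.0837); that on ILMN_2961221 was lost without control 3, at 0.0682. The fourth kept probe, ILMN_1246309, was detected on 6 of 22 arrays and stayed within 6.47 and 7.14, close to background, so that its change of -0.16 at 42 weeks carries little about the gene.

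The 3 brighter Slco2a1 probes varied together between arrays of a group, with r of 0.92 to 0.97 over deviations from group means. With the Slco2b1 probe their r was 0.61 to 0.67. DENA plus TCPOBOP array 6 was the highest of its group on Slco2b1, at 10.55, and on each of these 3 Slco2a1 probes. The part of this array in these r was not tested. In these correlations both probes were read from the same RNA on the same array, and the 22 arrays share slides. Over all arrays the genes most like Slco2a1 were Ifitm2 (r = 0.89), Ifitm3 (0.87) and Ifitm1 (0.86), interferon-induced membrane proteins. In the groups where Slco2a1 was called lower than in controls, most endothelial markers were lower too. At 42 weeks 9 of 15 fell and 1, Emcn, rose (0.72 ± 0.18, limma adjusted p = 0.00442). Over all genes 17.3% were called lower there and 14.6% higher. After DENA plus TCPOBOP 8 of 15 fell, where 14.7% of all genes were called lower and 11.6% higher. The median log2 changes of the markers were -1.12 and -1.20. At 28 weeks 0 of 15 passed in limma and the median was -0.15. Single arrays departed from this group pattern: DENA plus TCPOBOP array 7 had the lowest endothelial sum of its group, 3470, with the second highest Slco2a1 level. The endothelial part in the result was not tested.

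**Figure D3:**
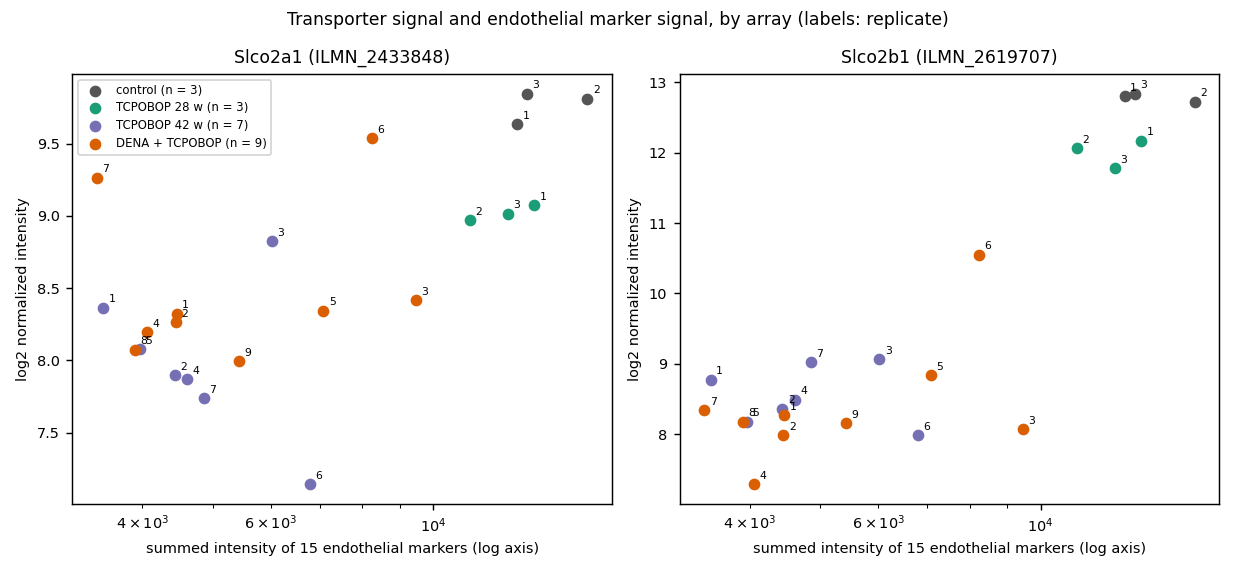
Log2 normalized intensity of Slco2a1 and Slco2b1 (y axes) against the summed intensity of 15 endothelial markers (x axis, log scale), with 1 point per array, coloured by group and labelled by replicate. Controls and 28-week arrays lie at 11221 to 16260 on the x axis and the later groups at 3470 to 9467; DENA plus TCPOBOP array 7 combines the lowest sum with a Slco2a1 level of 9.26.

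The start regions of these 2 genes are shown because they fell together and most. RefSeq (GRCm38.p6) lists 3 starts for Slco2b1 and 1 for Slco2a1, each given as 250 bases before to 50 bases after the start, 5′ to 3′ along the gene; the single Slco2b1 probe was not assigned to a start. Capitals mark, on either strand, the hexamers AGGTCA and AGTTCA that nuclear receptors such as CAR bind in pairs, the TATA box TATAAA, the CCAAT box CCAAT and the GC box GGGCGG.
Slco2b1, chr7:99711291-99711590, minus strand: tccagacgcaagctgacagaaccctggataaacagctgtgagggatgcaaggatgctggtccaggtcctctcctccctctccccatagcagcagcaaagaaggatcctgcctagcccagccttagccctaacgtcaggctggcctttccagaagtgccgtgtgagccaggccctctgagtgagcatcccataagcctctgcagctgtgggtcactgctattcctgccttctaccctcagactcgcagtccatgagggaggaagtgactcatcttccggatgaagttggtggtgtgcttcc
Slco2b1, chr7:99706793-99707092, minus strand: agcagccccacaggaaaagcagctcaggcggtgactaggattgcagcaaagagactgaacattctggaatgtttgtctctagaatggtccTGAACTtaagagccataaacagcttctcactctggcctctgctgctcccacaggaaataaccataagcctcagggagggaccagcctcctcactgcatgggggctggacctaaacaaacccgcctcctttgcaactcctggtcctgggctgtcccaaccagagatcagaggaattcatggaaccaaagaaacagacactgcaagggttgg
Slco2b1, chr7:99695760-99696059, minus strand: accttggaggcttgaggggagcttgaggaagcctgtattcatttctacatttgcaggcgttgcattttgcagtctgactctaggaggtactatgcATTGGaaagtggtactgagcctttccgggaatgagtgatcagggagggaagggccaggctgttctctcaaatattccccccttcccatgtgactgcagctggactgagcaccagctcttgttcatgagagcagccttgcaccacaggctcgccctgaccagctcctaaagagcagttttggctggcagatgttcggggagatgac
Slco2a1, chr9:103008237-103008536, plus strand: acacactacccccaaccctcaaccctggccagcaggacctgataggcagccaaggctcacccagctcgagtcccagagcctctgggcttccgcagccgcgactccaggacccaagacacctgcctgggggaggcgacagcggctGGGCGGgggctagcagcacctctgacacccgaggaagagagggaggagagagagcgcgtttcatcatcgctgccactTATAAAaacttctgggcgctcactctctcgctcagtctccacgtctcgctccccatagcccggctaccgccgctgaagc
The Slco2b1 starts hold none of these motifs, 1 AGTTCA and 1 CCAAT box, in the order shown, whereas the Slco2a1 start holds a TATA box and a GC box and has 64.0% G and C with 18 CpG dinucleotides. Of 32851 mouse promoters of the same length, 16.3% hold AGGTCA, 14.0% AGTTCA, 13.6% TATAAA, 37.4% CCAAT and 35.7% GGGCGG. For 8 of the 9 genes, all but Slc22a7, a start region was at hand, 11 in all: AGGTCA was found in 3 of them (Slc10a1, Slco1a1 and Slco1b2), AGTTCA in 2, TATAAA in 4, CCAAT in 2 and GGGCGG in 2. Repeats of AGGTCA in the same direction with 4 bases or 1 base between them were in none of the 11, and in 0.0152% and 0.0396% of all promoters. Slc22a5 had the highest G and C content of the 11, at 72.7% with 34 CpG dinucleotides.

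Slc22a7 (OAT2), a carrier of organic anions and nucleotides, passed the test as lower than in controls in all 3 treated groups, and at 28 weeks no other of the 8 genes passed in the fit of all 4 groups. Its probe ILMN_2766867 read 8.62, 8.22 and 7.80 in the controls and 7.39, 7.37 and 7.24 at 28 weeks of TCPOBOP. The lowest, median and highest levels were 7.17, 7.33 and 7.55 at 42 weeks and 7.12, 7.44 and 7.67 after DENA plus TCPOBOP. All 19 treated arrays were below the lowest control, and the treated groups overlapped each other.

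The Slc22a7 signal was 1.84-fold lower at 28 weeks (-0.88 ± 0.15, limma adjusted p = 0.00105), 1.81-fold lower at 42 weeks (-0.85 ± 0.13, limma adjusted p = 4.53e-05) and 1.73-fold lower after DENA plus TCPOBOP (-0.79 ± 0.13, limma adjusted p = 8.35e-05). The 42-week and 28-week groups differed by 0.03, with a 95% interval from -0.24 to 0.30. The controls spread more than the treated groups, with an SD of 0.41 against 0.08, 0.14 and 0.15, and within slides the change ran from -1.27 and -1.25 against control 1 to -0.56 and -0.41 against control 3. The treated levels lay near background, with detection p up to 0.0267, and after background correction (normexp) the changes were -1.54, -1.49 and -1.36, over 1.5 times as large. The genes most like Slc22a7 over the 22 arrays were Ccl21c (r = 0.87), Rnf225 (0.86) and Slc30a3 (0.85), with r of 0.60, 0.28 and 0.47 over deviations from group means. At 42 weeks these genes lay near background, at 6.73, 6.85 and 6.72.

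Slc10a1, the sodium-dependent bile salt carrier, fell modestly in the later groups. Its probe ILMN_2600147 read 8.14, 8.35 and 8.16 in the controls and 7.99, 8.04 and 7.82 at 28 weeks of TCPOBOP. The lowest, median and highest levels were 7.32, 7.66 and 7.83 at 42 weeks and 7.07, 7.81 and 8.08 after DENA plus TCPOBOP. No treated array of any group reached the lowest control, although DENA plus TCPOBOP array 5, at 8.08, came close to it.

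Slc10a1 was 1.54-fold lower than in controls at 42 weeks (-0.63 ± 0.16, limma adjusted p = 0.00617) and 1.42-fold lower after DENA plus TCPOBOP (-0.50 ± 0.16, limma adjusted p = 0.0245); at 28 weeks the change was -0.27 ± 0.19 (limma adjusted p = 0.553). With the slide as a fixed block the 42-week call was lost (-0.41, limma adjusted p = 0.0920), and the DENA plus TCPOBOP call was lost without control 1, 2 or 3 (limma adjusted p = 0.0552, 0.124 and 0.0647), under median scaling (0.106) or with only the 2 groups (0.0605). After background correction the changes were -1.05 and -0.86, over 1.5 times as large. The treated groups did not differ in a call: 42 weeks minus 28 weeks was -0.36 (95% interval -0.70 to -0.02, limma adjusted p = 0.173), DENA plus TCPOBOP minus 28 weeks -0.24 (-0.57 to 0.09) and DENA plus TCPOBOP minus 42 weeks 0.12 (-0.13 to 0.37). Ehbp1 (r = 0.86), Epm2aip1 (0.86) and Pcmtd2 (0.84) had the most similar pattern over the 22 arrays.

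Slco1b2 (OATP1B2), the rodent counterpart of the human hepatocyte carriers OATP1B1 and OATP1B3, was read by 3 probes that disagreed. ILMN_1255164 read 14.50, 14.89 and 14.92 in the controls and 14.59, 14.30 and 14.36 at 28 weeks, with a lowest, median and highest of 13.71, 14.14 and 14.34 at 42 weeks and 13.91, 14.44 and 14.81 after DENA plus TCPOBOP. ILMN_2730145 read 8.03, 9.20 and 8.83 in the controls and 7.65, 7.59 and 8.34 at 28 weeks, then 7.21, 7.51 and 7.84 at 42 weeks and 7.63, 8.03 and 8.57 after DENA plus TCPOBOP. On both probes every 42-week array was below every control, and the other treated groups overlapped the controls. ILMN_1251837 ranged from 9.73 to 10.85 in controls, 10.28 to 11.35 at 28 weeks, 9.87 to 11.23 at 42 weeks and 9.46 to 11.39 after DENA plus TCPOBOP, with all groups overlapping.

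At 42 weeks Slco1b2 was 1.59-fold lower on ILMN_1255164 (-0.67 ± 0.16, limma adjusted p = 0.00383) and 2.25-fold lower on ILMN_2730145 (-1.17 ± 0.21, limma adjusted p = 0.000298). On ILMN_2730145 this change was -1.81 after background correction, and -0.76 with the slide as a fixed block (limma adjusted p = 0.00286), where the difference within slide 2 was -0.61. The change on ILMN_1251837 was 0.10 ± 0.37, with a 95% interval from -0.67 to 0.86. After DENA plus TCPOBOP only ILMN_2730145 passed (-0.59 ± 0.21, limma adjusted p = 0.0451), and this call was lost without any 1 of 8 of the 12 arrays (controls 2 and 3 and DENA plus TCPOBOP arrays 1, 2, 4, 5, 6 and 8), with a limma adjusted p up to 0.362 and a change of -0.33 without control 2; it was also lost under normexp (0.0732), cyclic loess (0.0521), median scaling (0.170), no filter (0.0804) or only the 2 groups (0.0789). At 28 weeks the same probe stood at -0.83 ± 0.25 without passing (limma adjusted p = 0.0639); it passed without control 1 (-1.15, limma adjusted p = 0.00819) and without the 28-week array 3 (-1.06, limma adjusted p = 0.0296). DENA plus TCPOBOP was above 42 weeks by 0.58 ± 0.16 on ILMN_2730145 (limma adjusted p = 0.0534) and passed without the 42-week array 3 (0.64, limma adjusted p = 0.0281) or DENA plus TCPOBOP array 1 (0.64, limma adjusted p = 0.0372). With the slide as a fixed block this difference was 0.03 (limma adjusted p = 0.960), and on slide 1, the slide that held both groups, it was 0.14 over 2 and 3 arrays. By ILMN_1255164 the genes most like Slco1b2 were Akr1c6 (r = 0.82), Rgn (0.81) and Adipor2 (0.80).

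Slco1a4 (OATP1A4), a carrier of bile acids and digoxin known as inducible by CAR and PXR agonists in mouse liver, was not called in any comparison. Its probe ILMN_1258323 read 9.30, 8.84 and 9.54 in the controls and 9.96, 9.21 and 9.71 at 28 weeks of TCPOBOP. The lowest, median and highest levels were 9.35, 9.85 and 11.01 at 42 weeks and 8.99, 9.64 and 10.62 after DENA plus TCPOBOP. Arrays 6 and 7 at 42 weeks, with 10.79 and 11.01, stood above all other arrays, the next being DENA plus TCPOBOP array 9 at 10.62, and every treated group overlapped the controls.

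The change of Slco1a4 against controls was 0.40 ± 0.40 at 28 weeks, 0.83 ± 0.34 at 42 weeks (limma adjusted p = 0.0709) and 0.47 ± 0.32 after DENA plus TCPOBOP. The 95% interval at 42 weeks ran from 0.13 to 1.52, and the change passed without the 42-week array 3 (0.94, limma adjusted p = 0.0359). The most similar genes were Nckap1 (r = 0.86), Cct6a (0.85) and Thumpd3 (0.85). A further Slco1a4 probe, ILMN_2648990, was detected on 1 of 22 arrays. Slco1a1 (OATP1A1), known in mouse for higher hepatic expression in males than in females, was likewise detected on 1 of 22 arrays, with levels of 6.61 to 7.00, and is the 1 gene of the 9 that was not tested.

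**Figure D4:**
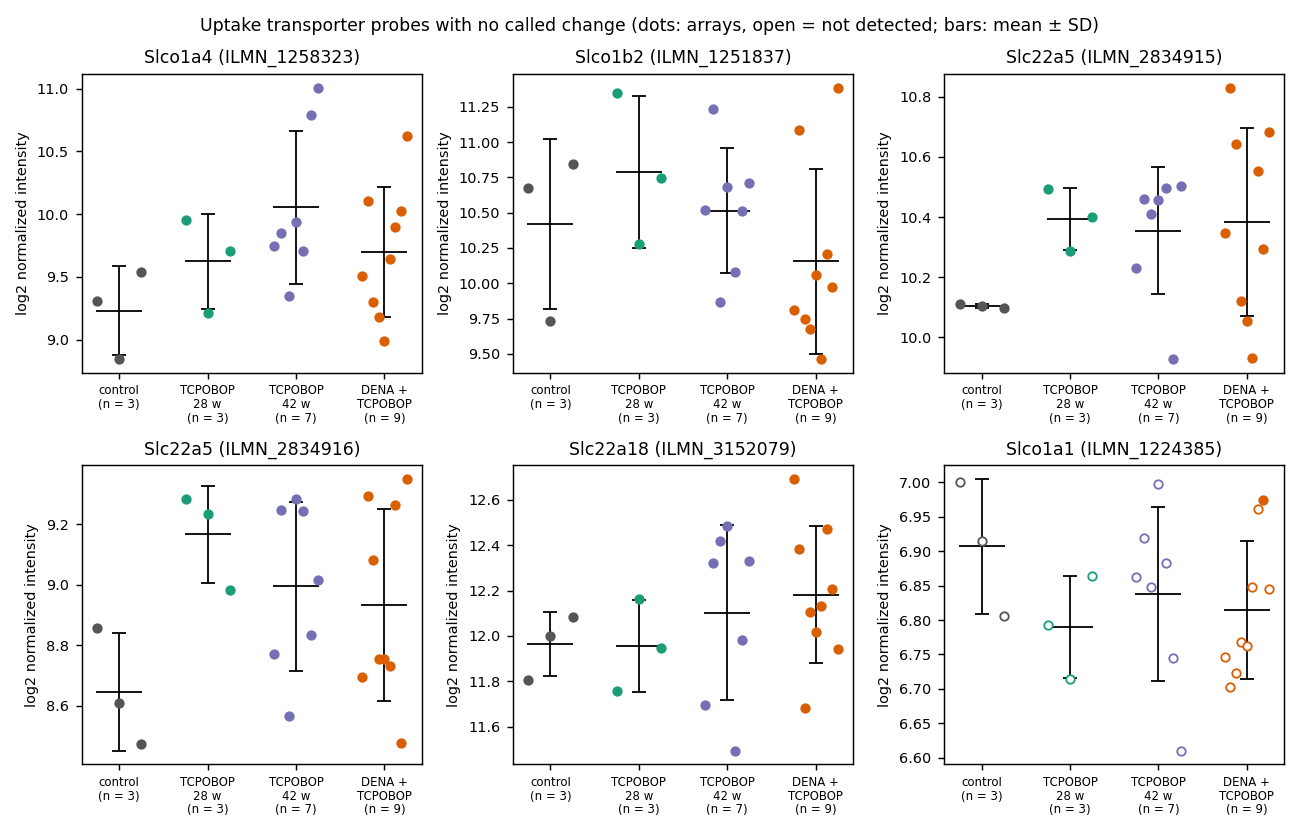
Log2 normalized intensity (y axis) by group (x axis) of 6 uptake carrier probes with no called change; filled dots are arrays with a detection p under 0.05, open dots arrays without, and bars the mean ± SD. Slco1a4 reaches 11.01 at 42 weeks of TCPOBOP, the Slc22a5 probes lie above the controls at 28 weeks, and Slco1a1 is undetected on 21 of 22 arrays.

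Slc22a5 (OCTN2), the carnitine carrier, stayed without a call. ILMN_2834915 read 10.11, 10.10 and 10.10 in the controls and 10.49, 10.29 and 10.40 at 28 weeks of TCPOBOP, with medians of 10.46 at 42 weeks and 10.35 after DENA plus TCPOBOP. ILMN_2834916 read 8.86, 8.61 and 8.47 in the controls and 9.28, 9.24 and 8.98 at 28 weeks, with medians of 9.02 and 8.76 in the later groups. At 28 weeks both probes were above the controls on all 3 arrays, and in the later groups they overlapped them.

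The Slc22a5 changes on ILMN_2834915 were 0.29, 0.25 and 0.28 in the order 28 weeks, 42 weeks and DENA plus TCPOBOP, each with a standard error of 0.16 to 0.19, and those on ILMN_2834916 were 0.52, 0.35 and 0.29, with limma adjusted p of 0.205, 0.169 and 0.279. The 28-week change on ILMN_2834916 passed with only the groups compared in the fit (limma adjusted p = 0.0288) or with array weights (0.58, limma adjusted p = 0.0219), and its 42-week change passed with array weights (0.43, limma adjusted p = 0.0360). ILMN_2651273 was detected on 13 of 22 arrays and changed by at most 0.10. Between arrays of a group, ILMN_2834915 varied with the Slco1b2 probe ILMN_1255164, at r of 0.73 over 22 deviations from group means. The genes most like Slc22a5 were Nrap (r = 0.78), Synrg (0.74) and Dkk3 (0.72). Nrap lay near background, at 6.79 in controls and 6.90 at 42 weeks.

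Slc22a18, an imprinted organic cation carrier of unsettled substrate, was not called in any comparison. ILMN_3152079 read 11.81, 12.00 and 12.08 in the controls and 11.76, 12.16 and 11.95 at 28 weeks, with a lowest, median and highest of 11.49, 12.32 and 12.49 at 42 weeks and 11.68, 12.13 and 12.69 after DENA plus TCPOBOP. The groups overlapped throughout. Its changes against controls were -0.01, 0.14 and 0.22, with 95% intervals from -0.51 to 0.49, -0.28 to 0.56 and -0.19 to 0.63. A second probe, ILMN_2702633, was detected on 1 of 22 arrays. Cnot10 (r = 0.74), Kcnh1 (0.71) and Slc25a39 (0.71) had the most similar pattern. Kcnh1 lay near background, at 6.82 in controls and 6.83 at 42 weeks.

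Other carriers changed in both directions in the same livers. Here a gene is read by its brightest kept probe, and over all genes so read 3.45% were called higher and 2.59% lower at 28 weeks of TCPOBOP, 14.6% and 17.3% at 42 weeks, and 11.6% and 14.7% after DENA plus TCPOBOP. Of the other Slco and Slc22 genes 11 of 32 were kept; at 42 weeks of TCPOBOP 2 rose and 4 fell, with a median of 0.03. Slco4a1, a thyroid hormone carrier, was not well above background in the controls and at least 4.48-fold higher at 42 weeks (limma adjusted p = 1.53e-06) and at least 3.22-fold higher after DENA plus TCPOBOP (limma adjusted p = 1.94e-05). Slc22a28 and Slc22a30 fell, with log2 changes of -2.71 ± 0.27 and -2.87 ± 0.31 at 42 weeks. Of the SLC10 family 2 further genes were kept, and Slc10a3 rose by 0.58 ± 0.15 at 42 weeks, a call lost with the slide as a fixed block (0.41, limma adjusted p = 0.101). Among other solute carriers of the liver, 3 of 20 kept genes rose and 9 fell at 42 weeks, with a median of -0.59: the manganese exporter Slc30a10 changed by -3.11 ± 0.19, the glutamine carrier Slc38a3 changed by -2.40 ± 0.27, and the dicarboxylate carrier Slc13a3 rose by 2.62 ± 0.27. After DENA plus TCPOBOP 3 of these 20 rose and 7 fell, and at 28 weeks 1 rose and 3 fell.

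Genes of the export side were called in both directions. Of 12 kept genes of bile acid and organic anion efflux, 3 rose and 0 fell at 28 weeks of TCPOBOP, 4 rose and 3 fell at 42 weeks, and 4 rose and 2 fell after DENA plus TCPOBOP. The basolateral pump Abcc4 (MRP4) rose by 2.81 ± 0.30, 3.92 ± 0.25 and 3.62 ± 0.24 in that order, and the canalicular pump Abcc2 (MRP2) by 1.42 ± 0.29, 2.17 ± 0.24 and 1.82 ± 0.23; both genes are also among the CAR targets. Abcb11, the bile salt export pump, changed by -0.82 ± 0.27 at 42 weeks (limma adjusted p = 0.0261). Of 11 kept genes of bile acid synthesis and conjugation, 1 rose and 4 fell at 42 weeks and 1 rose and 5 fell after DENA plus TCPOBOP; Baat, which joins bile acids to taurine and glycine, changed by -1.82 ± 0.28 and -1.39 ± 0.27.

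Regulators of these carriers moved as well. Of 16 kept regulators, 0 rose and 2 fell at 28 weeks, 3 rose and 5 fell at 42 weeks, and 4 rose and 4 fell after DENA plus TCPOBOP, with medians between -0.10 and 0.06. Nr1i3, the receptor that TCPOBOP binds, changed by -1.81 ± 0.31 at 28 weeks (limma adjusted p = 0.00069). Nr1h4, the bile acid receptor FXR, changed by -0.98 ± 0.14 at 42 weeks and -1.01 ± 0.14 after DENA plus TCPOBOP, and Cebpa, a liver-enriched factor, by -1.45 ± 0.23 and -1.25 ± 0.22. Nr1i2, the xenobiotic receptor PXR, rose by 0.63 ± 0.16 and 0.94 ± 0.15. The 15 CAR targets that rose at 42 weeks, of 22 kept, include Gstm3 at 3.96 ± 0.22 and Gsta1 at 4.02 ± 0.40, and 1, Cyp2b9, changed by -3.29 ± 0.74.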

How the data were processed

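RNA of 22 liver samples was hybridised to Illumina mouse bead arrays. The authors deposited probe intensities on a linear scale, as a non-normalized and a normalized table, with no background subtracted in either, and a detection p-value per probe and array. BeadStudio 3.0.19.0 is named, per the submitters' processing notes; the normalization method is not given in the sources used here, but all 22 arrays of the normalized table share their minimum and maximum. The series' own value table held the same values. Detection p-values of the normalized table were used; 93 probe-array values differed in the other table.

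Log2 of the normalized intensity was fitted in limma 3.58.1 (R 4.3.3) with lmFit and eBayes, all 4 groups in 1 fit and no covariate, over probes that at least 3 arrays detected (detection p under 0.05). P-values were adjusted over all 22622 such probes for each of 6 comparisons. A gene counts as called where at least 1 kept probe passes and none passes the other way. The fit was tested on simulated data. Of each list at most 4 genes were named, those with the largest called changes in each direction; the 3 genes most like each member were taken by Pearson r over the 22 arrays. The members and lists were chosen with earlier results of these data known. Slides were compared as blocks and within slides. Same-numbered arrays of different groups deviated together with r over 0.1 in 5 of 22 pairs. Differently numbered arrays were not compared, so these r cannot show whether numbers pair arrays. The labels do not tie numbers across groups, and numbers were not taken to pair arrays. Start regions were matched by symbol to RefSeq for 8 of 9 genes, with Python 3.11.15 and pandas 2.3.3. Fewer arrays limit the precision of the 3-array groups.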

Additional observations from a re-analysis of the deposited data

Results flagged for a closer look

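Within the DENA plus TCPOBOP group, array 6 held a Slco2b1 level of 10.55, and the next array stood at 8.84; its gap to the others was 0.524 of the group's range, past Dixon's 95% limit. It was the only outlying array among 30 probe and group sets of 7 or 9 arrays, and chance alone marks about 1 in 20 of such sets, so that 1 of 30 is no more than chance gives. Without this array the Slco2b1 change against controls was -4.65 in limma, beside -4.38 with it.

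The change from controls differed between 42 and 28 weeks of TCPOBOP for Slco2b1, by -3.45, and for Slco2a1, by -0.98 on ILMN_2961221 and -1.03 on ILMN_2433848, as tested by the contrast of these groups. It also differed for Slco2b1 between DENA plus TCPOBOP and TCPOBOP alone at 28 weeks, by -3.60.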

How the results depend on the processing

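Of 20 called changes of uptake carrier probes, 11 kept their call under every alternative: the 4 of Slco2b1, the 3 of Slc22a7, and at 42 weeks against controls the 3 of Slco2a1 and that of Slco1b2 on ILMN_2730145. The other 9 lost it at least in 1 setting, and of 70 changes not called 12 passed in at least 1; no called change turned its direction. The losses include the calls on Slco1b2 ILMN_1255164 at 42 weeks, lost under median scaling (-0.68, limma adjusted p = 0.0902), and on Slco2a1 ILMN_2433848 after DENA plus TCPOBOP, lost with the replicate number as a block (-1.10, limma adjusted p = 0.0533). That block also ended the calls on Slco2a1 ILMN_2961216 (-0.71, limma adjusted p = 0.360) and ILMN_2961221 (-0.73, limma adjusted p = 0.174) after DENA plus TCPOBOP, on ILMN_2961221 and ILMN_2433848 between 42 and 28 weeks (0.170 and 0.118), and on Slco1b2 ILMN_2730145 after DENA plus TCPOBOP (0.0501). The cause of these losses was not tested. Depth is not defined for arrays; probes near background understate a change, and background correction enlarged those of Slc22a7, Slc10a1 and Slco1b2 ILMN_2730145 at 42 weeks over 1.5 times.

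Counts of called uptake carrier genes moved as follows. For TCPOBOP at 28 weeks against controls (1) they were 2 with the slide as a fixed block, with the replicate block or with a trended, robust eBayes, and 4 (1 higher, 3 lower) with only the 2 groups compared or with array weights. For DENA plus TCPOBOP against controls (5) they were 3 under median scaling, with the replicate block or with only the 2 groups. For 42 against 28 weeks (2) they were 1 under median scaling, without a filter, with the brightest probe per gene, with the slide as a fixed block or with the replicate block. For DENA plus TCPOBOP against 42 weeks (0) they were 1, Slco1b2 higher, under normexp, stricter detection filters (9 arrays, or p under 0.01), the replicate block, only the 2 groups, or the trended eBayes, and 0 in the other settings; with the slide as a fixed block the same Slco1b2 difference was 0.03 in place of 0.58. Leaving out 1 array at a time gave 1 to 2, 5 to 6, 3 to 5, 1 to 2, 1 to 1 and 0 to 1 genes in the 6 comparisons: 28 weeks, 42 weeks and DENA plus TCPOBOP against controls, 42 weeks and DENA plus TCPOBOP against 28 weeks, and DENA plus TCPOBOP against 42 weeks.

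Over all probes, the main counts in that order were 1175, 6513, 5214, 2608, 2447 and 461. Median scaling gave 538, 4228, 3171, 1127, 1064 and 1, and the brightest probe per gene, which tests fewer probes, gave 761, 3870, 3222, 1731, 1561 and 217. For DENA plus TCPOBOP against 42 weeks the count was 237 without a filter, 0 with the slide as a fixed block, 209 with the slide as a random block and 203 with only these 2 groups. For 28 weeks against controls it was 3020 with only the 2 groups and 3053 with array weights, which also gave 4284 for 42 against 28 weeks and 4495 for DENA plus TCPOBOP against 28 weeks. Without 1 array the counts were 676 to 767, 4497 to 6784, 3584 to 5430, 1174 to 2934, 1005 to 2929 and 176 to 1317. Median scaling moved the share of higher calls from 45.3% to 20.5% for 42 against 28 weeks, from 45.9% to 26.3% for DENA plus TCPOBOP against 28 weeks, and from 52.3% to 0% of 1 call for DENA plus TCPOBOP against 42 weeks. The replicate block used array numbers that the labels do not tie to each other across groups, with pair correlations of -0.22 to 0.18.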
